A study of Mus musculus with 8 samples.

Results

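The genes described here are Alzheimer's disease risk genes of lipid transport and endocytosis: Apoe, Abca1, Abca7, Clu, Lrp1, Sorl1, Bin1, Picalm, Cd2ap and Ptk2b. They were chosen by symbol as a list of 10 genes, of which 9 were measured, among 19505 genes that carried 1 symbol on the array. Picalm was not analysed here. Hippocampi were taken after training in the Morris water maze, a test of spatial memory, from 8 transgenic mice 18 to 20 months old. Their strain was B6.Cg-Tg(APPswe)E1-2Dbo/J. The labels class 4 of them as memory impaired and 4 as memory intact, with 1 array for each. Mice of both groups carried the mutant amyloid precursor protein transgene, and no group without it was analysed here. The sources used here give neither the transgene's promoter nor the score that divided impaired from intact memory.

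Apolipoproteins carry cholesterol and phospholipids between glia and neurons, and ABC transporters load these lipids onto them. Neurons take up the particles through endocytic lipoprotein receptors, which clathrin coats and adaptor proteins draw into endosomes. The same endosomes receive the amyloid precursor protein, where its cleavage can release amyloid-β. Human variants in or near many of these genes have been associated with the risk of late-onset Alzheimer's disease.

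Values are log2 expression, made by the authors with robust multi-array averaging (RMA), so that a difference of 1 is a doubling. Differences are impaired minus intact, from a linear model fitted with limma to the 14628 genes that passed a floor on low values, with Benjamini-Hochberg adjustment over all of them. The number of arrays limits the precision, and the median standard error of a difference was 0.10. The hippocampal markers Prox1 (dentate granule cells) and Wfs1 (CA1) had values of at least 9.50 and 9.17 in every mouse. Bok (CA3) was dimmer, at 7.58 or more. It lay below 7.92, the 95th percentile of the intron background probe sets, in impaired mice 1 and 2 and intact mice 1, 2 and 3. The labelled tissue thus bore its dentate and CA1 markers, while Bok alone is a weak check of CA3. Neighbouring tissue differed between single mice. The choroid plexus gene Ttr stood at 9.79 in impaired mouse 3 and 10.56 in intact mouse 3, against at least 12.30 in the others. Tcf7l2, a gene of thalamic neurons, stood at 9.66 in intact mouse 3 and at 11.10 or more in the other mice.

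All 9 measured genes passed the floor on low values, but none passed the test between impaired and intact mice. At an unadjusted p under 0.05, limma called 0 of the 9 genes, where it called 4.68% of all genes tested (2.17% higher and 2.52% lower in impaired mice). At an adjusted p under 0.05 it called 0 of the 9 genes and 0% of all genes, and when its prior was made robust and followed intensity it called 1 gene, Scg5, which is no member. The 4 impaired values overlapped the 4 intact values for each of the 9 genes, while 2.58% of all genes tested had groups that did not overlap. The mean was higher in impaired mice for 5 genes and lower for 4, where 47.1% of all genes tested had a higher mean, and the median of the 9 differences was 0.043, against -0.0083 over all genes. The largest difference upward was 0.16 (Abca1) and the largest downward -0.21 (Cd2ap). Since the tissue was taken whole, fewer cells of a type and less RNA per cell cannot be told apart.

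**Figure D1:**
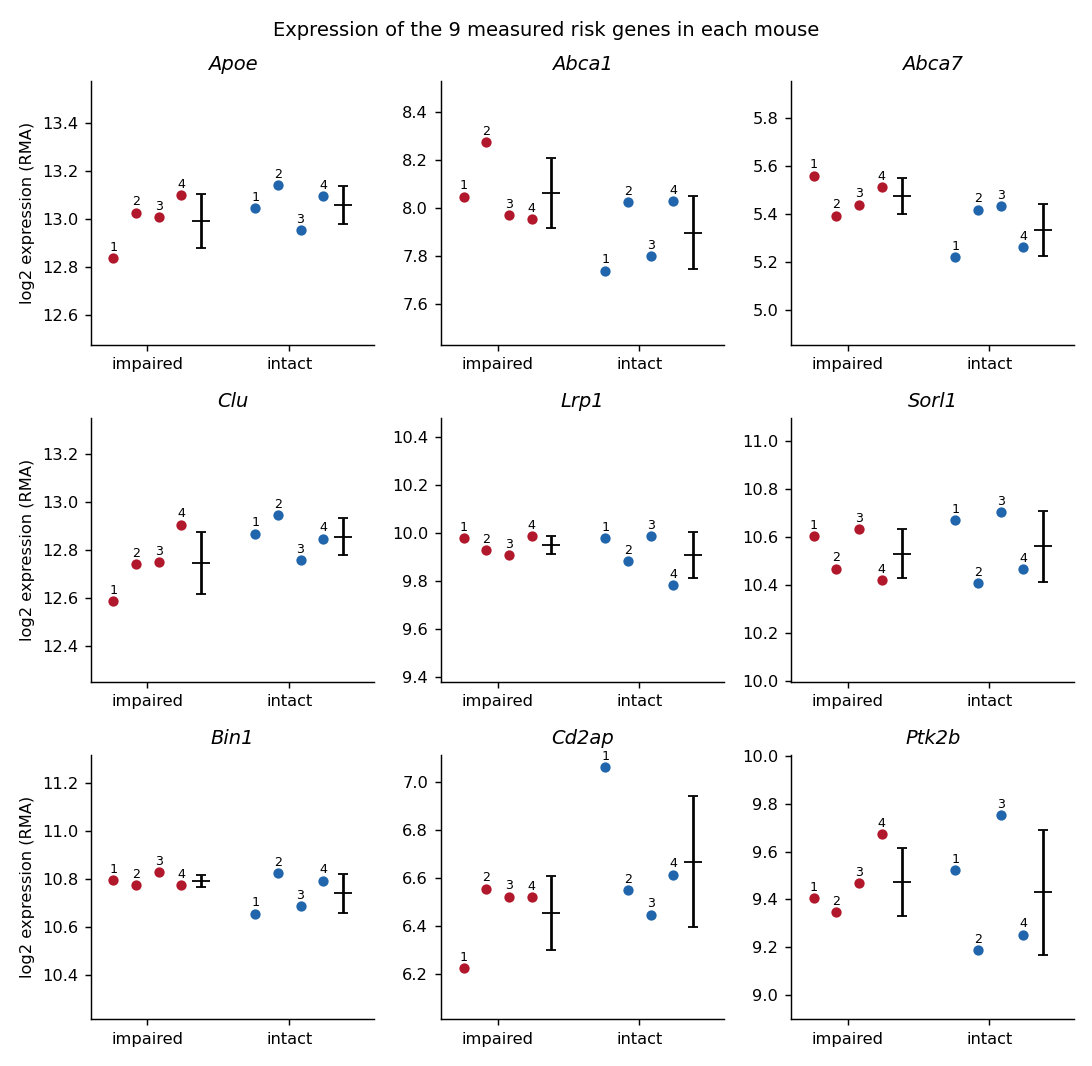
Log2 expression of the 9 measured risk genes in each mouse; red points are the 4 impaired mice and blue points the 4 intact mice, numbered, with the mean and SD as black bars. Each panel spans the same height on the log2 scale, and in every panel the red and blue points overlap; Cd2ap has the widest range, 0.84, and Bin1 the narrowest, 0.17.

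Among the lipid carriers, Apoe encodes apolipoprotein E, the main lipid carrier made by astrocytes and, in disease, by microglia. Its values were 12.84, 13.03, 13.01 and 13.10 in impaired mice 1 to 4, against 13.05, 13.14, 12.96 and 13.10 in intact mice 1 to 4. Impaired mouse 1 was the lowest of the 8 mice, and the other impaired values lay within the intact range. Apoe averaged 12.99 ± 0.11 in impaired mice and 13.06 ± 0.080 in intact mice (SD, n = 4 each). That is a log2 difference of -0.067 (standard error 0.085; limma, adjusted p = 0.965). The 95% interval for the ratio of impaired to intact expression reached down to 0.838 and up to 1.09. Without impaired mouse 1 the difference was -0.014.

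Clu encodes clusterin, also called apolipoprotein J, a secreted chaperone and lipid carrier of astrocytes. It stood at 12.59, 12.74, 12.75 and 12.91 in impaired mice, against 12.87, 12.95, 12.76 and 12.85 in intact mice. Again impaired mouse 1 was the lowest and intact mouse 2 the highest. The means were 12.75 ± 0.13 in impaired and 12.85 ± 0.077 in intact mice (SD, n = 4 each), a log2 difference of -0.11 (standard error 0.089; limma, adjusted p = 0.961). The interval of the ratio was 0.810 to 1.06. The difference was -0.055 without impaired mouse 1 and -0.16 without impaired mouse 4, so that these mice moved it most.

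Abca1 encodes the transporter that moves cholesterol and phospholipid from the cell onto apolipoprotein E, and it is a known target of the liver X receptors, which sense oxidized cholesterol. Its values were 8.05, 8.27, 7.97 and 7.95 in impaired mice, against 7.74, 8.02, 7.80 and 8.03 in intact mice. Impaired mouse 2 was the highest, intact mice 1 and 3 were the lowest, and the rest of both groups lay together near 8. Abca1 averaged 8.06 ± 0.15 in impaired and 7.90 ± 0.15 in intact mice (SD, n = 4 each), which is 1.12-fold higher in impaired mice. The log2 difference was 0.16 (standard error 0.10; limma, adjusted p = 0.961). An exact permutation test over the 70 relabellings gave p = 0.229, two-sided, where the smallest possible is 0.0286. Without impaired mouse 2 the difference was 0.093, and with the choroid plexus and thalamus scores of each mouse as covariates it was 0.083.

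Abca7, a relative of Abca1, encodes a lipid transporter linked to phagocytosis and to phospholipid export. It stood at 5.56, 5.39, 5.44 and 5.51 in impaired mice, against 5.22, 5.42, 5.43 and 5.26 in intact mice. Impaired mice 1, 3 and 4 lay above every intact mouse, mouse 3 by less than 0.01, and intact mice 1 and 4 below every impaired mouse. The means were 5.48 ± 0.075 in impaired and 5.33 ± 0.11 in intact mice (SD, n = 4 each), with a difference of 0.14 (standard error 0.084; limma, adjusted p = 0.961; exact permutation p = 0.114). Its mean over all mice lay just above the floor of 5.33 and below 6.30, the 75th percentile of the intron probe sets that serve as background on this array.

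RefSeq promoters of assembly GRCm38.p6, spanning 250 bases before to 50 bases after the transcription start, were searched for sites of these pathways, and those of Abca1, Abca7 and Cd2ap are shown because these genes had the largest differences. The motifs were the E-box CACGTG, the GC box GGGCGG, the TATA box TATAAA, the sterol element TCACNCCAC and DR4, the direct repeat of the kind that liver X receptors bind, each on both strands. Capitals mark every match. The regions are chr4:53159846-53160145 on the minus strand (Abca1), chr10:79996244-79996543 on the plus strand (Abca7) and chr17:42876375-42876674 on the minus strand (Cd2ap), each written 5′ to 3′ along the gene.
Abca1: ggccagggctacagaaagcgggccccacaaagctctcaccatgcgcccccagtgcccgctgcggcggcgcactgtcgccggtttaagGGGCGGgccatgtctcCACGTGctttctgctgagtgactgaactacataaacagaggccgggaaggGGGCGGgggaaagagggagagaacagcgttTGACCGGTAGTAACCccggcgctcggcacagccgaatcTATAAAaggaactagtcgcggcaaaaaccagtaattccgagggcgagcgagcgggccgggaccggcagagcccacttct
Abca7: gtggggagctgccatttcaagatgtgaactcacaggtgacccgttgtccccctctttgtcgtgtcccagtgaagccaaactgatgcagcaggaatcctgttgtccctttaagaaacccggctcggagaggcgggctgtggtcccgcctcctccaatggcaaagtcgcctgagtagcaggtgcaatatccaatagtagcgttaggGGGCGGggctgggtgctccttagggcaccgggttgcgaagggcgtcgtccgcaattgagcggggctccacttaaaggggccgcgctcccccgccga
Cd2ap: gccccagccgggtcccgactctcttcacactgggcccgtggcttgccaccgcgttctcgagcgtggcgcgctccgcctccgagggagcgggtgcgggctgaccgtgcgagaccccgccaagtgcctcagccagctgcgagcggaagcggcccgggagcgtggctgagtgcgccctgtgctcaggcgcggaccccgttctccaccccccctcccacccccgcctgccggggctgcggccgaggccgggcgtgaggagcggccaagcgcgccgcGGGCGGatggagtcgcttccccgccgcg
The Abca1 promoter held the direct repeat on the opposite strand at -67 to -53, which 0.207% of 32851 promoters hold, an E-box at -147 to -142 (7.15% of promoters) and a TATA box at -29 to -24 (13.6%). It also held a GC box at -163 to -158 and another at -97 to -92. The Abca7 and Cd2ap promoters held 1 GC box each, at -46 to -41 and at 23 to 28, a motif found in 35.7% of promoters. These matches describe the letters of the window and not binding. Promoters of Apoe, Lrp1 and Sorl1 were searched too. Sorl1 had an E-box at -19 to -14 and a GC box at -81 to -76 of its first start, and Lrp1 a GC box on the opposite strand at -99 to -94. Of 3 starts of Apoe, the second had a TATA box at -96 to -91 that overlapped another on the opposite strand at -100 to -95, and the others had none of the 5 motifs.

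Of the receptors, Lrp1 encodes a large endocytic receptor that clears apolipoprotein E particles and amyloid-β. Its values were 9.98, 9.93, 9.91 and 9.99 in impaired mice, against 9.98, 9.88, 9.99 and 9.78 in intact mice. Intact mouse 4 was the lowest, and the other 7 mice lay between 9.88 and 9.99. Lrp1 averaged 9.95 ± 0.038 in impaired and 9.91 ± 0.096 in intact mice (SD, n = 4 each). The log2 difference of 0.043 (standard error 0.078; limma, adjusted p = 0.986) was 0.00096 without intact mouse 4. The interval of the ratio, 0.914 to 1.16, was among the narrowest of the 9 genes.

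Sorl1 encodes SORLA, a sorting receptor that steers the amyloid precursor protein away from endosomes with the help of the retromer complex. It stood at 10.60, 10.47, 10.63 and 10.42 in impaired mice, against 10.67, 10.41, 10.70 and 10.47 in intact mice. Each group held a pair of mice above 10.5 and a pair below it, so that the spread within the groups was larger than the distance between them. The means were 10.53 ± 0.10 and 10.56 ± 0.15 (impaired and intact, SD, n = 4 each), and the difference was -0.030 (standard error 0.095; limma, adjusted p = 0.992). Its sign turned in 5 of 18 alternative settings, among them quantile normalization repeated on the tested genes (0.0025) and the thalamus score as a covariate (0.017). Some of the 18 settings change only the standard error and not the difference.

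Among the adaptors of endocytosis, Bin1 encodes amphiphysin 2, a protein that binds and bends membranes and that is abundant in oligodendrocytes and neurons. Its values of 10.79, 10.77, 10.83 and 10.77 in impaired mice and 10.66, 10.82, 10.69 and 10.79 in intact mice spanned 0.17, the smallest range of the 9 genes. Intact mice 1 and 3 were the lowest. The residual SD of Bin1, 0.060, was at the 3.25th percentile of all genes tested. The means were 10.79 ± 0.025 in impaired and 10.74 ± 0.082 in intact mice (SD, n = 4 each), the difference 0.053 (standard error 0.075; limma, adjusted p = 0.973) and the interval of the ratio 0.925 to 1.16.

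Cd2ap encodes a scaffold that links endocytic vesicles to actin, known for its part in the kidney's filter and in endothelial cells. It stood at 6.22, 6.55, 6.52 and 6.52 in impaired mice, against 7.06, 6.55, 6.45 and 6.61 in intact mice. In each group mouse 1 stood apart, downward among the impaired and upward among the intact, while the other 6 mice lay between 6.45 and 6.61. Cd2ap averaged 6.46 ± 0.15 in impaired and 6.67 ± 0.27 in intact mice (SD, n = 4 each). The difference was -0.21, or 1.16-fold lower in impaired mice (standard error 0.14; limma, adjusted p = 0.961; exact permutation p = 0.286). It was -0.081 without intact mouse 1, -0.14 without impaired mouse 1 and -0.29 without intact mouse 3.

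Ptk2b encodes the calcium-activated tyrosine kinase PYK2, a relative of focal adhesion kinase that is rich in hippocampal pyramidal neurons and acts at synapses. Its values were 9.41, 9.35, 9.47 and 9.67 in impaired mice, against 9.52, 9.19, 9.75 and 9.25 in intact mice. The intact group held both the highest and the lowest of the 8 mice, and the impaired values all lay between them. The means were 9.47 ± 0.14 in impaired and 9.43 ± 0.26 in intact mice (SD, n = 4 each), with a difference of 0.045 (standard error 0.13; limma, adjusted p = 0.991). The difference was 0.15 without intact mouse 3, and it was below 0 without intact mouse 2 (-0.035), impaired mouse 4 (-0.022) or intact mouse 4 (-0.014). The ratio's interval, 0.846 to 1.26, was wider than that of Lrp1 or Bin1.

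**Figure D2:**
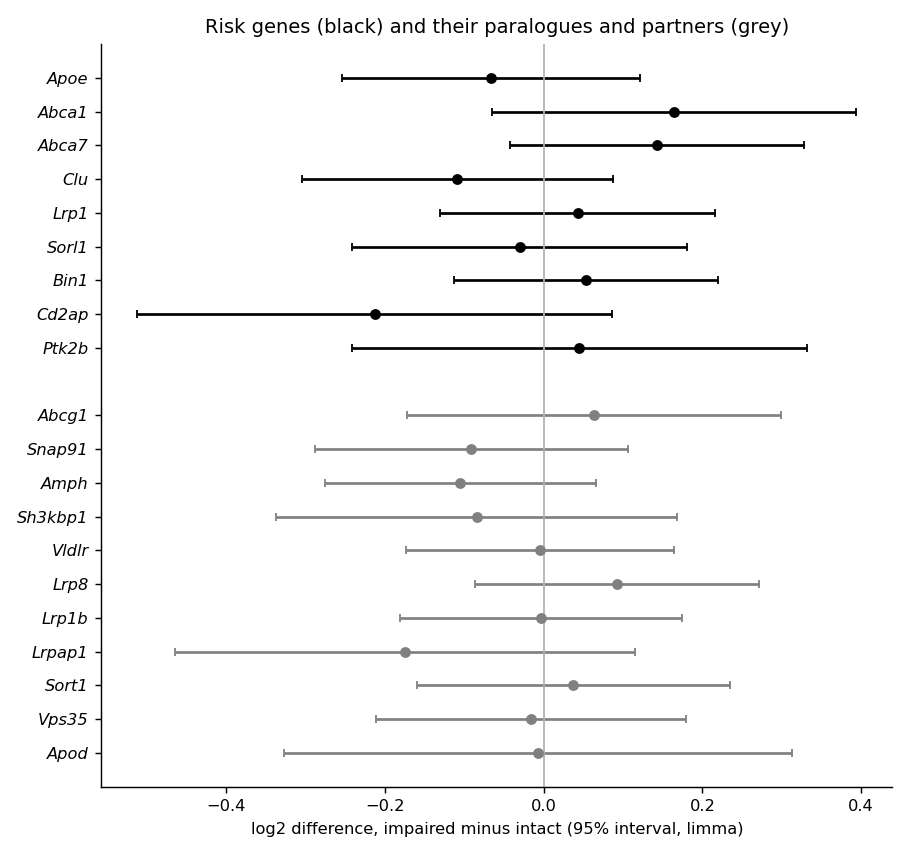
Log2 difference of impaired minus intact mice with its 95% interval from limma, for the 9 risk genes in black and 11 paralogues and partners in grey. Every interval includes 0; the widest among the risk genes is that of Cd2ap, from -0.51 to 0.086, and the narrowest that of Bin1, from -0.11 to 0.22.

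Paralogues and direct partners of these genes showed differences of like size. Of these, 11 were tested, and Ptk2 was not analysed here. Lrpap1, the chaperone of Lrp1 in the secretory pathway, had the largest difference, -0.17 (standard error 0.13; limma, adjusted p = 0.961), and its values of 9.51, 9.77, 9.34 and 9.995 in impaired mice were more spread than the 9.94, 9.86, 9.77 and 9.74 in intact mice. Amph and Snap91, the neuronal relatives of Bin1 and Picalm, differed by -0.11 (standard error 0.077) and -0.091 (standard error 0.089). Sh3kbp1, the relative of Cd2ap, differed by -0.084 and the apolipoprotein E receptor Lrp8 by 0.092. Abcg1, which like Abca1 exports cholesterol, differed by 0.064, and the sorting receptor Sort1 by 0.037. The lipoprotein receptors Vldlr and Lrp1b, the retromer subunit Vps35 and the lipid carrier Apod lay between -0.016 and -0.0035.

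Across the 8 mice some members varied together. Of 36 pairs, 2 passed an exact permutation test of Pearson's r over all 40320 pairings after Benjamini-Hochberg adjustment, both with an adjusted p of 0.0138, while no pair passed by Spearman's rho (smallest adjusted p = 0.0804). Apoe and Clu had an r of 0.95 (exact p = 0.000744) and a rho of 0.88 (exact p = 0.00724, adjusted 0.0869). Within the groups, after each group's mean was taken off, r was 0.95, and without impaired mouse 1 and intact mouse 2, the mice farthest from the median of Apoe, it was 0.79. Both genes are very bright. The median deviation of the 100 genes with the highest means was -0.12, 0.027, -0.057 and 0.049 in impaired mice and 0.032, 0.048, 0.021 and 0.0043 in intact mice, so that bright genes as a whole were also lowest in impaired mouse 1. After quantile normalization was repeated on the tested genes, r was 0.72 (exact p = 0.0474) and rho 0.61 (exact p = 0.118), which were not adjusted over pairs. The pairs checked under this setting were chosen after seeing the data. Under it Apoe differed between the groups by -0.0021.

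Abca7 and Cd2ap varied in opposite directions, with an r of -0.85 (exact p = 0.000769) and a rho of -0.93 (exact p = 0.00223, adjusted 0.0804). Within the groups r was -0.81. It was -0.78 without intact mice 1 and 4, and -0.77 without intact mouse 1 alone. Impaired mouse 1 had the highest Abca7 and the lowest Cd2ap, while intact mouse 1 had the lowest Abca7 and the highest Cd2ap. After repeated quantile normalization r was -0.86. Both genes are dim, and Cd2ap lay below the 95th percentile of the intron controls (7.92) in every mouse. Lrp1 and Ptk2b had an r of 0.75 (exact p = 0.0301) and a rho of 0.90 (exact p = 0.00456), with adjusted p of 0.362 and 0.0821. Without intact mice 2 and 4 their r was 0.61.

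**Figure D3:**
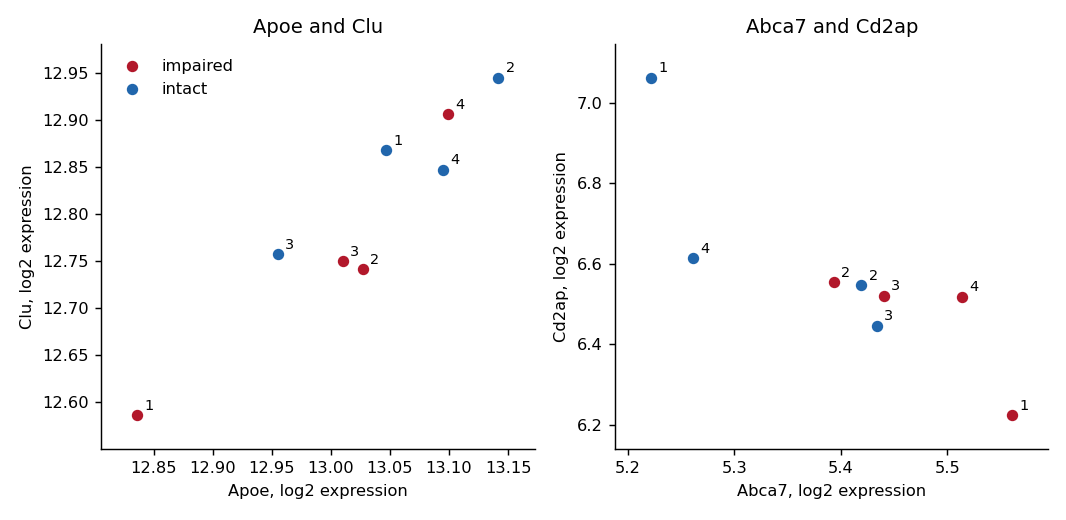
Log2 expression of Clu against Apoe (left) and of Cd2ap against Abca7 (right) in each mouse, impaired in red and intact in blue, with the mouse number beside each point. Clu follows Apoe along a rising line (r = 0.95) with impaired mouse 1 at its lower end; Cd2ap is lower where Abca7 is higher (r = -0.85), and both mice numbered 1 lie at the ends.

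Of 90 pairs of a member with a score of cell type or bordering tissue markers, 12 had an exact permutation p under 0.05 for Pearson's r, and 0 passed the adjustment (smallest adjusted p = 0.237 for Pearson's r and 0.461 for Spearman's rho). For each mouse, a score averages how far the genes of a list lie from their 8-mouse means. For Lrp1 and the CA1 score of 9 genes, r was 0.85 (exact p = 0.00546) and rho 0.86 (exact p = 0.0107), and r was 0.79 without intact mice 3 and 4. Lrp1 and the oligodendrocyte score had an r of -0.80 (exact p = 0.0129) and a rho of -0.79 (exact p = 0.0279), and r was -0.81 without intact mice 2 and 3. The CA1 score also had an r of 0.78 with Ptk2b (exact p = 0.0211; 0.51 without intact mice 3 and 4) and 0.77 with Sorl1 (exact p = 0.0207; 0.73 without them). With Bin1 its r was -0.76 (exact p = 0.0309; -0.82 without them). The rho of these 3 pairs was 0.71, 0.76 and -0.67 (exact p = 0.0576, 0.0368 and 0.0831). Ptk2b went with the score of dentate granule cells, with an r of 0.81 (exact p = 0.0170) and a rho of 0.86 (exact p = 0.0107), and r was 0.87 without impaired mice 2 and 4. Its r with the thalamus score was -0.78 (exact p = 0.0148) and its rho -0.60 (exact p = 0.132), and r was -0.56 without intact mice 1 and 3. Apoe and the oligodendrocyte score had an r of 0.82 (exact p = 0.0106) and a rho of 0.74 (exact p = 0.0458), and r was 0.77 without intact mice 2 and 3. For Apoe and the astrocyte score r was 0.80 (exact p = 0.0156) and rho 0.60 (exact p = 0.132), and r was 0.25 without impaired mouse 1 and intact mouse 3, so that this relation rested on those mice. The remaining pairs were Abca1 with the dentate score, and Bin1 and Sorl1 with the thalamus score. Their r was -0.73, 0.75 and -0.65 (exact p = 0.0387, 0.0363 and 0.0493). Their rho was -0.83, 0.71 and -0.45 (exact p = 0.0154, 0.0576 and 0.267). For Abca1, r was -0.85 without impaired mice 2 and 4. Without intact mice 1 and 3, r was 0.44 for Bin1 and -0.13 for Sorl1.

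The summed level of each marker list overlapped between the groups, while single markers did not always. The astrocyte score was -0.11, 0.040, 0.060 and 0.047 in impaired mice and -0.030, 0.059, -0.11 and 0.043 in intact mice. Its 14 genes, taken as a log2 of their summed level, spanned 14.30 to 14.56 in impaired and 14.36 to 14.56 in intact mice. The sum of 14 microglial genes spanned 11.88 to 12.30 in impaired and 11.82 to 12.10 in intact mice. That of 12 oligodendrocyte genes spanned 13.82 to 14.17 in impaired and 13.79 to 14.39 in intact mice, and all 12 had lower means in impaired mice (median -0.14). The sum of 13 choroid plexus genes spanned 11.04 to 13.61 in impaired and 11.40 to 14.12 in intact mice, and that of 12 thalamus genes 12.91 to 13.59 in impaired and 11.67 to 13.64 in intact mice. The thalamus score was -0.15, 0.43, 0.49 and -0.027 in impaired mice and -0.27, 0.42, -1.35 and 0.46 in intact mice, lowest by far in intact mouse 3. Without that mouse the difference of the thalamus gene Tcf7l2 was -0.033, against 0.51 with all mice. All 13 choroid plexus genes had lower means in impaired mice (median -0.52), all 12 thalamus genes higher means (median 0.33), 11 of 13 endothelial genes lower means (median -0.098) and 11 of 14 microglial genes higher means (median 0.031). In these 5 lists limma called 0 genes at an unadjusted p under 0.05. Of 9 CA3 genes, 4 had higher and 5 lower means in impaired mice (median -0.064), and 2 were lower at that p, or 22.2% of the list. Among all genes tested, 4.68% had that p in either direction and 2.52% were lower. The CA3 gene Npy2r, chosen after its values were seen, spanned 8.495 to 8.756 in impaired and 8.757 to 9.026 in intact mice. Lower groups without overlap made up 1.46% of all genes tested, and higher ones 1.12%. The CA1 gene Wfs1 spanned 9.76 to 9.94 in impaired and 9.17 to 9.75 in intact mice, also with no overlap, although 5 of 9 CA1 genes had lower means in impaired mice. Their part in the differences of single members was not tested beyond the covariate settings.

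**Figure D4:**
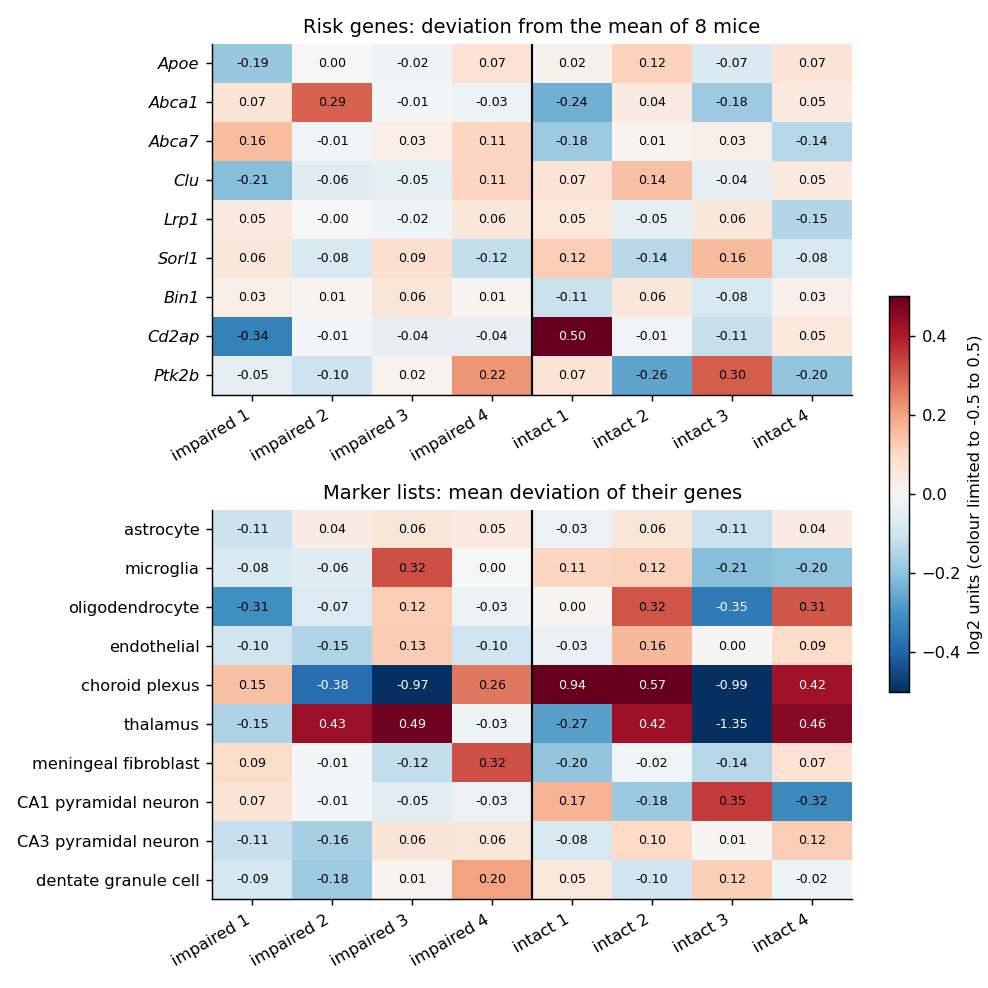
Deviation of each risk gene from its mean over the 8 mice (upper map) and the mean deviation of each marker list (lower map), in log2 units, with impaired mice left of the line and intact mice right of it. Apoe and Clu are lowest in impaired mouse 1, Cd2ap is lowest in impaired mouse 1 and highest in intact mouse 1, and the widest spans are those of the choroid plexus (-0.99 to 0.94) and thalamus (-1.35 to 0.49) lists.

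The wider pathways of these genes were described through 5 lists. Of 27 tested genes of lipoprotein particles and cholesterol efflux, 11 had higher and 16 lower means in impaired mice, with a median difference of -0.010, against -0.0083 over all genes. At an unadjusted p under 0.05, 1 was higher and 1 lower (7.41% of the list, against 4.68% of all genes tested). The lower one was Pltp, the phospholipid transfer protein, at 10.75, 10.71, 10.71 and 10.80 in impaired mice, against 11.09, 11.24, 10.82 and 11.05 in intact mice. Every impaired value lay below every intact one, and such lower groups without overlap made up 1.46% of all genes tested. The difference of Pltp was -0.31, or 1.24-fold (standard error 0.095; limma, adjusted p = 0.961). Its exact permutation p was 0.0286, the smallest possible, which every gene without overlap has here, so that it only restates the lack of overlap. Pltp had an unadjusted p under 0.05 (limma) in all 18 alternative settings, with differences from -0.38 to -0.24, and passed the adjustment in none. The settings reuse the same arrays and Pltp was named for its small p, so that they are no separate support. The higher one was Nr1h3, the liver X receptor α that drives Abca1, at 7.15, 7.21, 7.44 and 7.18 in impaired mice, against 7.17, 6.63, 6.998 and 7.05 in intact mice. Its difference of 0.29 (standard error 0.12; limma, adjusted p = 0.961) was 0.18 without intact mouse 2. Its partner receptor Rxra differed by 0.14 and Mylip, the liver X receptor target that degrades lipoprotein receptors, by -0.15, each with groups that overlapped.

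Of 19 tested genes of the lipoprotein receptor and sortilin families and their partners, 7 had higher and 12 lower means, with a median of -0.015. Lrp4, a receptor of agrin that also acts in Wnt signalling, stood at 7.74, 7.71, 7.998 and 7.64 in impaired mice, against 7.46, 7.34, 7.63 and 7.40 in intact mice. The groups did not overlap, as for 1.12% of all genes tested in this direction. Its difference was 0.31, or 1.24-fold higher (standard error 0.10; limma, adjusted p = 0.961). The exact permutation p of 0.0286 again only restates the lack of overlap, and Lrp4 too was named for its small p. No other gene of the list had an unadjusted p under 0.05, so that 5.26% of the list had it, against 4.68% of all genes tested. The lower genes with the smallest p were Lrp11 at -0.18 and Lrp10 at -0.25 (standard errors 0.089 and 0.14).

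Genes of clathrin-mediated endocytosis had lower means in impaired mice for 31 of 36, against 52.9% of all genes, with a median of -0.069. Of all genes tested, 4.68% had an unadjusted p under 0.05 in either direction, and 2.52% were lower at that p. The clathrin list had 3 such genes, all lower, or 8.33% of the list. That count was 0 with no filter, 6 with the robust prior, and 1 with array weights or when 1 of 4 mice was left out (impaired 1 or 3, intact 2 or 4). The genes were the epsin Epn2 (-0.18, standard error 0.079), the transferrin receptor Tfrc (-0.24, standard error 0.10) and the endophilin Sh3gl3 (-0.33, standard error 0.14), of which Sh3gl3 was chosen after its values were seen. None passed the adjustment (limma, adjusted p = 0.961 for each). The higher genes with the smallest p, Sh3gl1 and Ap2s1, differed by 0.074 and 0.043. The mean deviation of the list was -0.092, -0.0063, -0.071 and 0.014 in impaired mice, against 0.051, 0.049, 0.035 and 0.020 in intact mice. Impaired mice 1 and 3 were lowest, and these were also the mice in which the 100 brightest genes were lowest. The count of lower genes was 26 to 32 over the alternative settings, with 27 after repeated quantile normalization, where the median was -0.054. The alternative settings were applied to the lists after the data were seen. Genes of 1 list are not independent of each other, and the list was not tested as a whole.

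The retromer and endosomal sorting list had 8 higher and 18 lower genes of 26, with a median of -0.051 and 1 gene at an unadjusted p under 0.05 (3.85% of the list, against 4.68% of all genes tested). This was Rab5a, the small GTPase of early endosomes, at 10.30, 10.57, 10.32 and 10.69 in impaired mice, against 10.81, 10.71, 10.72 and 10.60 in intact mice, a difference of -0.24 (standard error 0.10; limma, adjusted p = 0.961). The sorting nexin Snx27 differed by -0.15, the clathrin adaptor Gga1 by 0.17 and the retromer subunit Vps29 by 0.12. Of 27 actin adaptors and focal adhesion genes, 9 had higher and 18 lower means, with a median of -0.037. The kinase Yes1 differed by -0.34 (standard error 0.14) at a mean of 5.37 in impaired and 5.71 in intact mice, close to background, and the actin capping subunit Capza1 by 0.23 (standard error 0.10). The actin-binding cortactin gene Cttn differed by -0.19 and Asap2 by 0.19, and each had an adjusted p of 0.961 (limma).

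**Figure D5:**
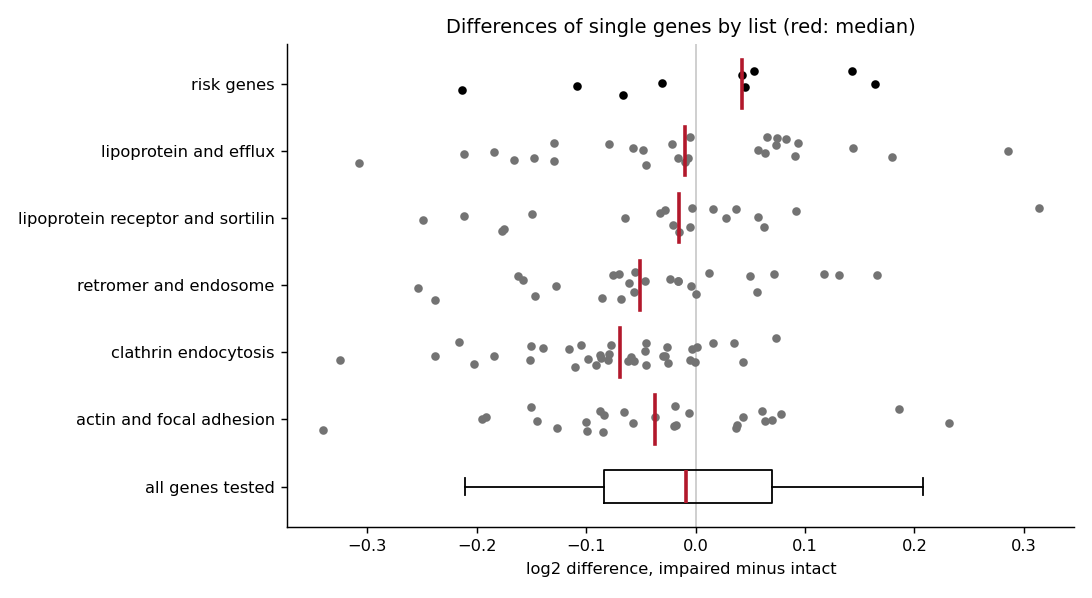
Log2 difference of impaired minus intact mice for every tested gene of the risk list and the 5 pathway lists (1 point a gene, red line the median), above the same for all 14628 genes tested (box from the 25th to the 75th percentile, whiskers from the 5th to the 95th). The risk genes spread on both sides of 0 around a median of 0.043, and the points of the clathrin list lie mostly below 0 around -0.069.

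Many other genes on the array had nearly the same pattern over the 8 mice as each member, which is usual among 13963 genes compared over so few mice. By Pearson's r, the gene most like Apoe was Rrh (r = 0.98), that most like Clu was Krt14 (r = 0.98) and that most like Abca1 was Alg14 (r = 0.98). Abca7 was most like Arf2 (0.99), Lrp1 like Mapk4 (0.95), Sorl1 like Plod2 (0.96), Bin1 like Pipox (0.98), Cd2ap like Rbl2 (0.97) and Ptk2b like Nxpe4 (0.99). Between 11 genes (Sorl1) and 58 genes (Apoe) reached an r of 0.9 with a member. These likenesses were picked as the highest of many and are given with no test.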

How the data were processed

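From each of 8 hippocampi, 1 ng of total RNA was amplified with the WT Pico kit and hybridised to a 1-colour Affymetrix array, per the labels' protocols. The authors deposited log2 values, made with RMA (background correction, quantile normalization and probe summary), per the submitters' processing notes. The sources used here do not give the software version or genome build. Of 29129 probe sets, 19572 had 1 gene symbol in the platform's table, for 19505 genes; the brightest probe set was used for each, and no member had more than 1. All 19572 matched a RefSeq gene of GRCm38.p6 by Entrez identifier. The 25% of genes with the lowest mean were left out (floor 5.33). The test was limma's moderated test (limma 3.58.1, R 4.3.3; two-sided, Benjamini-Hochberg over 14628 genes, threshold 0.05), with an exact permutation test for single genes. The procedure was tested on simulated data. No batch was given. Replicate numbers did not pair the mice (correlations of same-numbered deviations -0.10 to 0.033).

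The members, the gene lists and the tests were chosen with earlier results of these data known. Named were all members, 11 paralogues and partners, 5 tissue markers and the 2 genes with the smallest p in each direction of each pathway list. For each member, the gene most correlated with it among the 13963 compared was named too. Alternatives were the filter, the limma prior, repeated quantile normalization, array weights, a replicate block, plexus and thalamus scores as covariates, probe set averages, and leaving out each mouse. Ptk2 and Picalm were not analysed here.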

Additional observations from a re-analysis of the deposited data

Results flagged for a closer look

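Chance sets 1 sample of 4 apart in about 1 in 20 groups, and 7 of 128 groups examined had such a sample by Dixon's ratio at the 95% level. Of these, 3 were genes of impaired mouse 1. Cd2ap was 6.22 there, against 6.52 to 6.55 in the other impaired mice. Lrp1b was 9.36, against 9.54 to 9.57, and Rbl2, the gene most like Cd2ap, was 9.17, against 9.35 to 9.36. Rbl2 was examined only because it follows Cd2ap (r = 0.97), so its flag repeats that of Cd2ap. The groups examined are therefore not independent of each other. The astrocyte score of impaired mouse 1 was -0.11, against 0.040 to 0.060 in the other impaired mice. Among intact mice, Ttr was 10.56 in mouse 3 (13.28 to 13.69 in the others), Wfs1 was 9.17 in mouse 4 (9.69 to 9.75) and Vps29 was 10.56 in mouse 1 (10.63 to 10.64). Without impaired mouse 1 the difference of Cd2ap was -0.14, against -0.21 with all mice.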

How the results depend on the processing

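None of the 9 members reached an unadjusted p under 0.05 in any of 18 alternative settings. Of the members, 7 kept their sign in all settings in which they were tested. The filter settings, the robust prior, the replicate block and the probe set averages cannot change a member's difference or its sign. Those settings bear only on its p. With the lowest 50% of genes left out, Abca7 and Cd2ap were not tested and 434 genes had an unadjusted p under 0.05, against 685, because fewer genes were tested. An intensity trend with a robust prior brought 1 gene, Scg5, under an adjusted p of 0.05. With the replicate number as a block, 633 genes had an unadjusted p under 0.05, 0 passed the adjustment, and the median difference of the members was 0.043; no mouse correlated best with its own number. Among members, partners and pathway genes, some differences changed sign, and the cause was not tested. After repeated quantile normalization they were Sorl1 (0.0025), Vldlr (0.0054), Lrp1b (0.012), Vps35 (0.0037) and Apod (0.025), and with array weights Vldlr (0.0088). With the plexus score they were Ptk2b (-0.0078), Vps35 (0.0040) and Apod (0.064), with the thalamus score Sorl1 (0.017), Lrp1b (0.0041), Vps35 (0.013) and Ap2s1 (-0.0046), and with both scores Vps35 (0.070). Leaving out 1 mouse gave -0.035 to 0.15 for Ptk2b, -0.082 to 0.017 for Sorl1, -0.039 to 0.025 for Vldlr, -0.024 to 0.046 for Lrp1b, -0.080 to 0.021 for Vps35, -0.12 to 0.098 for Apod, -0.026 to 0.087 for Sort1 and -0.024 to 0.10 for Ap2s1. Tissue markers and the genes most like a member changed sign too: Ttr (-0.65) in 3 settings, up to 0.40 with both scores, Tcf7l2 (0.51) without intact mouse 3 (-0.033), Bok with both scores (-0.0058), Prox1 and Plod2 in 6 settings each and Nxpe4 in 3. The plexus score includes Ttr and the thalamus score Tcf7l2, so the settings with these scores are no check on either gene. Leaving out 1 mouse gave 486 to 936 genes at an unadjusted p under 0.05 and medians of the members from -0.035 to 0.050. The number of arrays, 4 a group, limits the precision.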

Other observations

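On the RefSeq annotation of GRCm38.p6, Clu and Ptk2b lie on chromosome 14 with 4 protein-coding genes between them. Over the 8 mice their expression had an r of -0.11 (exact permutation p = 0.796) and a rho of -0.048 (exact permutation p = 0.935). Without impaired mouse 1 and intact mouse 2, r was 0.11.

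The spread within the groups was smaller among impaired than among intact mice for 7 of the 9 members, against 48.9% of all genes tested, while the median SD of the members was 0.111 in impaired and 0.108 in intact mice. The SD of Bin1 was 0.025 in impaired and 0.082 in intact mice, and that of Cd2ap 0.15 in impaired and 0.27 in intact mice. The difference in spread was not tested.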
